A study of Homo sapiens with 18 samples.

Results

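Chromatin accessibility around CPXM2 was described in Ccd18-Co, an established line of human colon fibroblasts, by bulk ATAC-seq, an assay in which a transposase places adaptors for sequencing where chromatin is accessible. The locus held every peak of the consensus peak set that overlapped the CPXM2 gene body (chr10:123706207-123940267 in hg38, GENCODE release 44, minus strand) or the 100 kb on either side. These were 117 peaks of 334857 in all, of which 59 lay in the gene body, 30 in the 100 kb upstream of it and 28 in the 100 kb beyond its 3′ end. The locus was chosen by a measured value: 1 of its intronic peaks, called the index peak here, had a very large difference between cytokine-treated and unstimulated libraries. The values of that comparison are therefore a description and were not tested.

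The libraries formed 3 groups of 6 (n = 6 in every group below). The stimulated_DMSO and stimulated_Belinostat cells had received 3 pulses of TNF, OSM and IL-17A (10 ng/ml each) with IL-1β (0.1 ng/ml), every pulse lasting 72 h with 96 h of recovery, then 1 week of rest and 5 days of the solvent DMSO or of 250 nM belinostat, a histone deacetylase inhibitor, and were collected 2 weeks after that. These doses are the labels' own, and the study's text gives other concentrations of belinostat and IL-1β in places. The unstimulated cells had received no cytokines, and the labels do not say whether they went through the same medium changes or received DMSO. All groups came from 1 cell line, nothing in the labels says whether the 6 libraries of a group came from separate cultures, and p-values below therefore measure the spread between these libraries, which may be technical. In bulk material, a larger share of cells with an open site and a more open site in each cell cannot be told apart.

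Counts in peaks totalled 7077321 to 11352032 per unstimulated, 6488975 to 8066642 per DMSO and 4661678 to 6370845 per belinostat library. The share of them in the 10000 strongest peaks was 35.4% to 39% in unstimulated, 31.8% to 35.2% in DMSO and 28.4% to 34.5% in the belinostat group, so that weak peaks took a larger share of the counts in the treated groups. Unstimulated replicate 6 stood apart, with no count in 11.3% of all peaks. The fibroblast label was checked at gene starts: 12 of 12 fibroblast markers had a peak within 500 bases, 9 of them among the strongest 10% of all peaks (COL1A1 at percentile 99.8, VIM at 99.7). Of the markers of other cell types, KRT8, CD14 and ACTG2 were among the strongest 10% as well, 0 of 4 endothelial markers were, and KRT20 and LYZ had no peak at their starts.

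CPXM2 encodes a secreted protein of the metallocarboxypeptidase family, whose members remove amino acids from the C-terminal ends of peptides. Together with CPXM1 and AEBP1 it belongs to a branch that carries a discoidin domain, found in proteins that bind collagen or cell surfaces, and that lacks residues an active carboxypeptidase needs. Open sites in introns and between genes often act as enhancers, which transcription factors such as AP-1 and CEBP bind and from which a promoter at a distance can be driven. RNA was not analysed here, so nothing below gives the expression of CPXM2.

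Sequences of 3 peaks are shown. The index peak and the peak 10.4 kb from it had 2 of the 3 largest differences between DMSO and unstimulated libraries, among locus peaks whose average log2 CPM was 0 or more, and the other is the peak nearest to the coding start. Each is read from hg38 on the plus strand, 5′ to 3′, as the 300 bases around the peak's centre, and the one at the coding start stops before the first exon, whose nearer edge is 123891356. Capitals mark matches, on either strand, to words searched in all peaks: AP-1 (TGANTCA), CEBP (TTGCNNAA), TEAD (GGAATG), RUNX (TGTGGT), STAT (TTCNNNGAA) and NF-kB. No match overlapped another in these 3 windows. The 3 windows are chr10:123858147-123858446, chr10:123847714-123848013 and chr10:123891109-123891355.
Index peak: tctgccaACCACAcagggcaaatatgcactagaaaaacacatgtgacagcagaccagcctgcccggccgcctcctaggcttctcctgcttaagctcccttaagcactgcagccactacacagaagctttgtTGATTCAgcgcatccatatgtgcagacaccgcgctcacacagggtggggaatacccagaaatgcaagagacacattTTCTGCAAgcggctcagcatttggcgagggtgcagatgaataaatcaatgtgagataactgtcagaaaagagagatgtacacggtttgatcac
Peak at 10.4 kb toward the 3′ end: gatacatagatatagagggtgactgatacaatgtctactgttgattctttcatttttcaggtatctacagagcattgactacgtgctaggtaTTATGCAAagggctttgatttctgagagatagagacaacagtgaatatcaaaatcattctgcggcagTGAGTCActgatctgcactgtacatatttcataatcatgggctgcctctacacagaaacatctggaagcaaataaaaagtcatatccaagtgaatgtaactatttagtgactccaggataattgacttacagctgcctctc
Peak at the coding start: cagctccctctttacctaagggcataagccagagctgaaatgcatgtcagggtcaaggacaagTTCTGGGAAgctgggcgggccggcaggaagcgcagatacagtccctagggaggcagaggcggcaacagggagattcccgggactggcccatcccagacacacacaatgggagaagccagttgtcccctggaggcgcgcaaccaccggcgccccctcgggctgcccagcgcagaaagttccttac

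The index peak held an AP-1 word whose centre was 15 bases below the peak's own, a CEBP word 62 bases above it and a RUNX word 139 bases below it. The peak at 10.4 kb held an AP-1 word 13 bases above its centre and a CEBP word 53 bases below it. Over the locus, 10 of 117 windows held an AP-1 word (8.55%), and over all 334857 peaks 17.8% did. This difference was not tested, and locus peaks were narrower (median 223 against 275 bases) and had more GC (median 53% against 49.7%). CEBP words were in 13.7% of the locus windows and 14.1% of all, TEAD words in 25.6% and 21.3%, RUNX words in 25.6% and 22.6%, and STAT words in 6.84% and 8.7%. The NF-kB word was in 0 of the 117 and in 0.402% of all. A match describes letters in a window and does not show that a factor was bound.

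The index peak was weakly open in unstimulated cells and more open in both cytokine-treated groups, and the belinostat median lay below the DMSO median. It spans chr10:123857828-123858764, 937 bases within a CPXM2 intron and 28870 bases from the nearest annotated CPXM2 start, that of a short transcript at 123887166. Its raw counts were 6 to 16 in unstimulated, 37 to 75 in DMSO and 28 to 42 in the belinostat group. Relative to library size with TMM scaling (CPM), unstimulated libraries had a lowest value of 0.892, a median of 1.27 and a highest of 2.03. DMSO libraries had 5.45, 7.61 and 8.89, so that every DMSO library was above every unstimulated one. Belinostat libraries had 4.16, 5.74 and 7.03, a range that overlapped DMSO and cleared the unstimulated libraries.

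**Figure D1:**
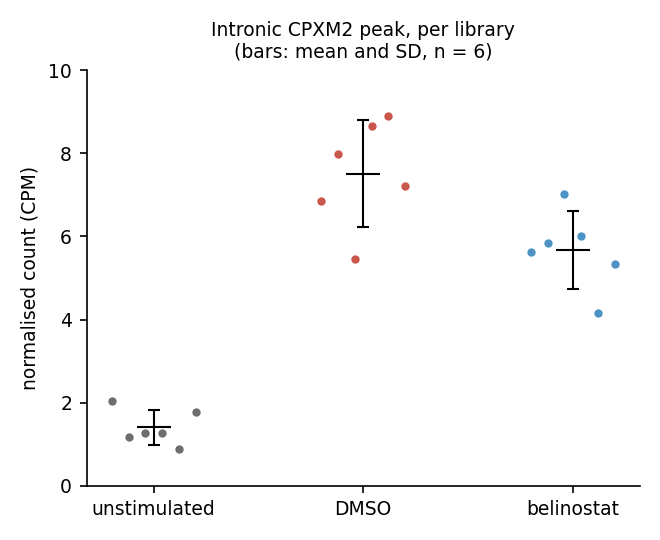
The plot gives the normalised count (CPM) of the index peak in each library (points), with the mean and SD of each group of 6. Unstimulated libraries lie at or below 2.03, DMSO libraries between 5.45 and 8.89 and belinostat libraries between 4.16 and 7.03.

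Fitted over all peaks, the index peak was 2.41 higher on the log2 scale in DMSO than in unstimulated libraries (SE 0.19), or 5.33-fold. This value chose the locus and has no test here. Scaling on the weaker 50% of peaks gave 1.96 and loess offsets, which remove the trend of each library with peak strength, gave 2.67. Between belinostat and DMSO the fitted difference was -0.42 (SE 0.15, 0.746-fold). It did not pass the test (edgeR quasi-likelihood, p 0.00677, Benjamini-Hochberg adjusted p 0.134 over all peaks), with adjusted p between 0.095 and 0.324 over the alternatives run. The DMSO libraries entered both this difference and the choice of the peak. Belinostat libraries remained 1.99 above unstimulated ones (SE 0.21, 3.97-fold), given without a test because the unstimulated libraries also chose the peak.

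Accessibility differences between DMSO and unstimulated libraries were not limited to the index peak: most of the small peaks inside CPXM2 were higher too, with smaller differences in the region upstream of the gene. Of the 58 other body peaks, 56 had a fitted difference above 0, from -0.25 to 2.1, with a median of 1.13. The highest of these, chr10:123769471-123769629, was named after its values were seen and held 45 counts over all libraries. In the 100 kb beyond the 3′ end, 26 of 28 were above 0 with a median of 0.91, and in the 100 kb upstream 20 of 30 with a median of 0.20. Among all 238929 peaks with an average log2 CPM under 1, 175451 were above 0. The body and both flanks consisted mostly of weak sites: the whole locus had a median average log2 CPM of -0.08, 106 of 117 peaks were under 1, and 74 held fewer than 100 counts over all 18 libraries.

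Weak peaks were higher in DMSO libraries genome-wide, and the locus has to be read beside that. The median difference of all 238929 peaks with an average log2 CPM under 1 was 0.40, against 0.90 for the 106 such peaks of the locus, 1.13 for the 54 of the body and 0.38 for the 24 upstream. With loess offsets the medians were 0.05 for all weak peaks, 0.70 for those of the body and 0.12 for those upstream. Over all 28 peaks beyond the 3′ end, the median of 0.91 became 0.40. In the DMSO against unstimulated comparison, edgeR called 41 of the 117 peaks opened (9.51% of all peaks were) and 2 closed (9.73% of all). With loess offsets it called 16 opened (2% of all) and 0 closed (1.9% of all). DESeq2 called 25 opened and 2 closed (15215 and 18587 of all 334857 peaks). Leaving out unstimulated replicate 6 or DMSO replicate 4 left 27 opened (18497 and 20047 of all peaks, against 31861 with all libraries). The choice of the locus used this comparison, so nothing is read from these counts. The part that the larger share of counts in weak peaks has in them was not tested beyond the loess values given here.

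**Figure D2:**
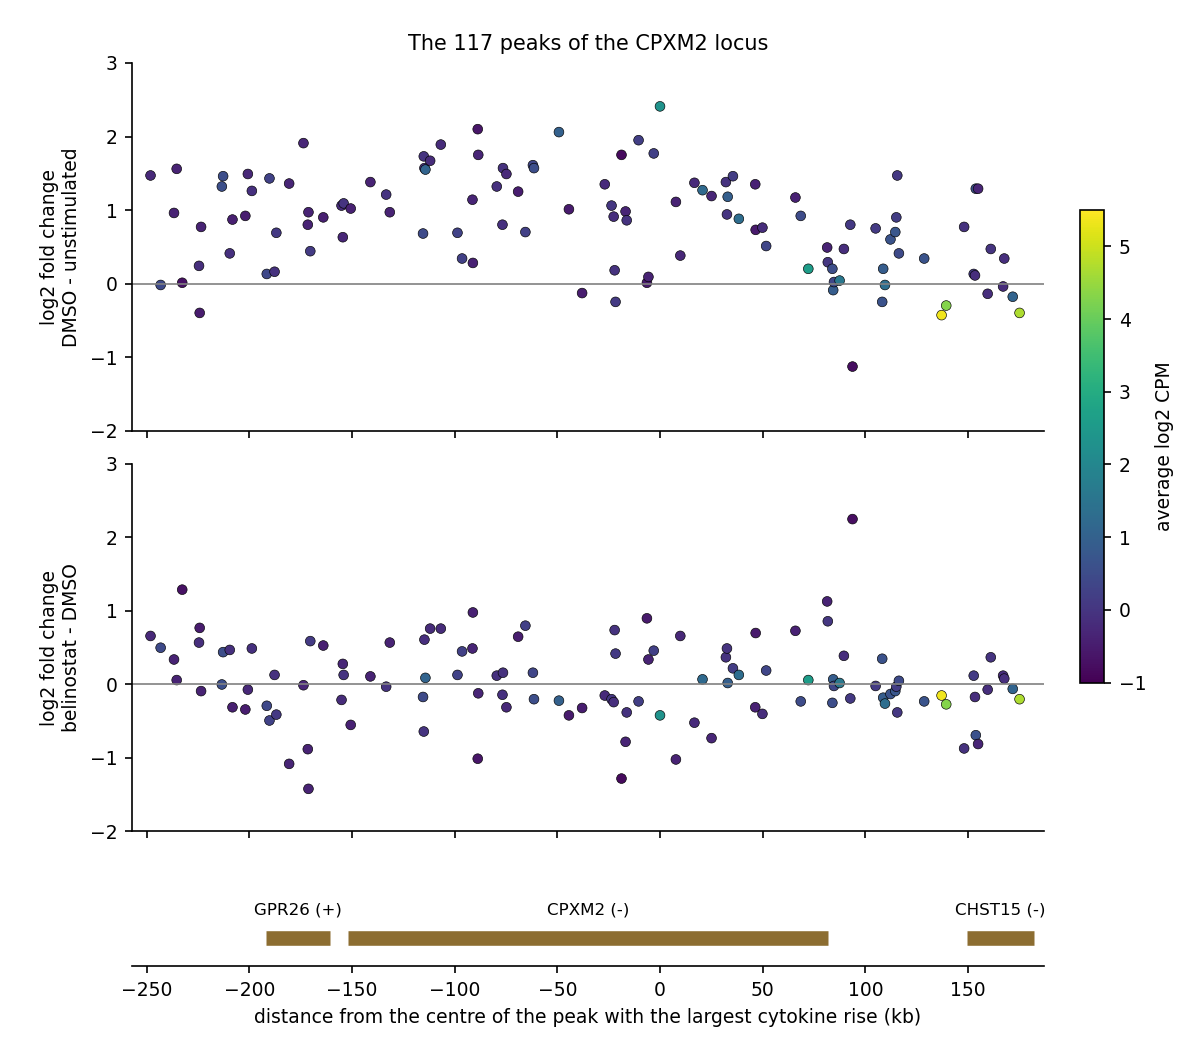
Each of the 117 peaks is plotted at its distance (kb) from the index peak's centre against its fitted log2 fold change, for DMSO minus unstimulated (top) and belinostat minus DMSO (bottom), coloured by average log2 CPM, with the genes and their strands underneath. Body peaks lie mostly above 0 in the top panel, the 3 strong peaks at the right lie between -0.43 and -0.30, and the bottom panel scatters around 0 with a median of 0.00.

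Summed counts gave the same picture library by library. The 58 body peaks other than the index peak summed to 22.2 to 34.7 CPM (median 30.5) in unstimulated libraries. In DMSO libraries they summed to 48.6 to 63.6 CPM (median 58.7) and in belinostat libraries to 53.8 to 64.2 CPM (median 61.6). Both treated groups were clear of the unstimulated one and overlapped each other. The ratio of group means was 1.97 between DMSO and unstimulated and 1.06 between belinostat and DMSO, while the sum over all weak peaks of the table had ratios of 1.25 and 1.07. Beyond the 3′ end the 28 peaks summed to medians of 11.8, 21.4 and 21.7 CPM in unstimulated, DMSO and belinostat libraries. The 30 upstream peaks had summed medians of 132, 114 and 99.8 CPM and a ratio of DMSO to unstimulated means of 0.854, although 20 of them had a fitted difference above 0. The 3 strongest of them, described below, were lower in DMSO libraries.

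**Figure D3:**
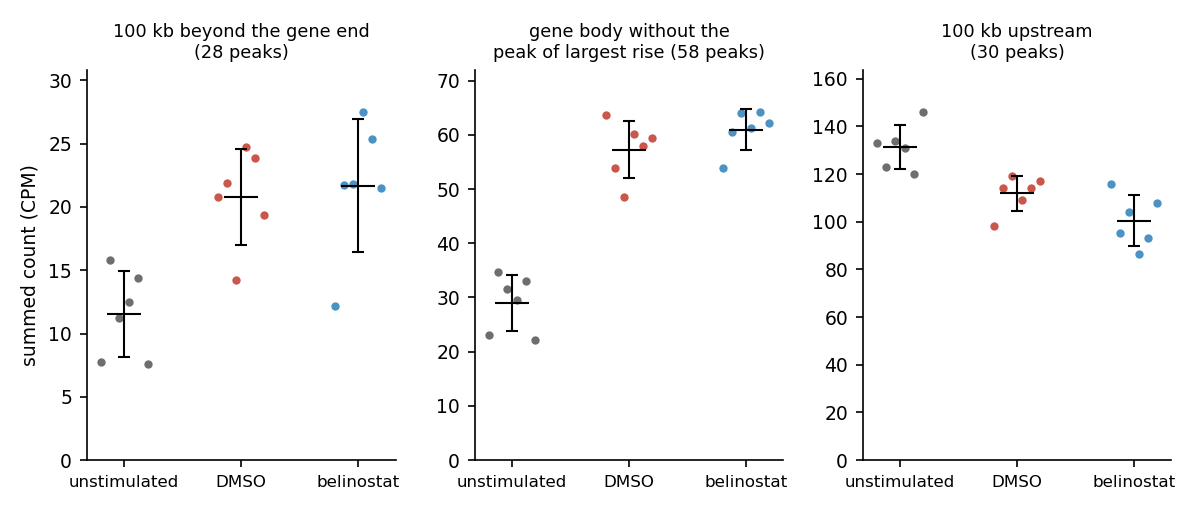
Summed CPM per library (points, with mean and SD of 6) for the peaks beyond the gene's 3′ end, in its body without the index peak, and upstream, each axis starting at 0. The unstimulated libraries of the body sum reach 34.7 at most and every treated library is at 48.6 or above, while the upstream sum is highest in unstimulated libraries.

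Within the gene body, the second largest difference among peaks whose average log2 CPM was 0 or more was at a peak in an intron 49.2 kb from the index peak toward the 3′ end. Its log2 CPM ranged from -0.45 to 0.32 (median -0.34) in unstimulated, from 1.02 to 2.06 (median 1.42) in DMSO and from 0.89 to 2.03 (median 1.16) in the belinostat group. All treated libraries were above all unstimulated ones, and the fitted difference of DMSO from unstimulated was 2.06 (SE 0.29). Next in order, chr10:123847651-123848075, 10.4 kb from the index peak, had log2 CPM medians of -0.78, 0.62 and 0.42. It rested on 1 to 3 counts per unstimulated library and 3 to 16 per DMSO library, and 1 DMSO library at -0.46 fell within the unstimulated range. Its fitted difference was 1.95 (SE 0.40).

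The other peaks are described by their distance from the index peak. Its nearest neighbour toward the 3′ end, chr10:123855124-123855378, had 0 to 3 counts per unstimulated, 4 to 11 per DMSO and 4 to 14 per belinostat library, and a fitted difference between DMSO and unstimulated of 1.77 (SE 0.43). The nearest on the other side, chr10:123865940-123866138, had 0 to 6, 2 to 8 and 0 to 4 counts, and the 3 groups overlapped. Over the 5 peaks within 10 kb of the index peak the median difference was 0.38, with a range from 0.01 to 1.77. Over the 23 peaks at 10 to 50 kb it was 1.06, from -0.25 to 2.06, and over the 88 peaks farther away 0.77, from -1.13 to 2.10. The 5 near peaks were also weaker, with a median average log2 CPM of -0.38 against -0.06 and -0.08. A trend with distance was not tested.

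**Figure D4:**
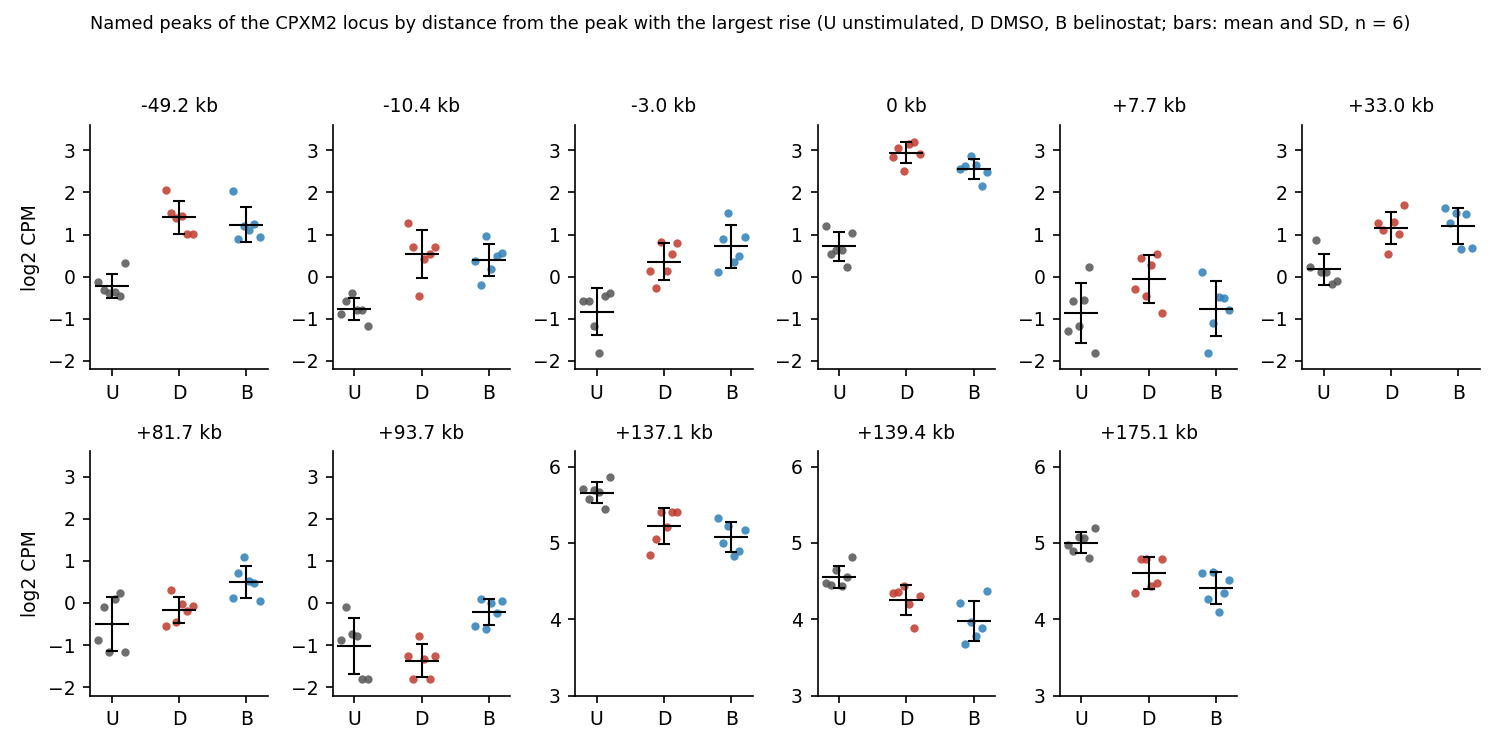
The 11 named peaks are ordered by distance (kb) from the index peak, with log2 CPM per library (points) and the mean and SD of 6 for unstimulated (U), DMSO (D) and belinostat (B); the 3 strong peaks at the right have an axis from 3 to 6.2. At -49.2, -3.0 and 0 kb every treated library is above every unstimulated one, and at +93.7 kb every belinostat library is above every DMSO library.

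The starts of CPXM2 held no strong peak in any group. The protein-coding transcripts start at 123891984 and 123891807, and no peak overlapped either position. The nearest, chr10:123891032-123891484, lay 323 bases inside the nearer start with one end in a first exon, and had log2 CPM medians of 0.11 in unstimulated, 1.20 in DMSO and 1.38 in the belinostat group. Its DMSO and belinostat ranges, 0.55 to 1.69 and 0.65 to 1.63, reached below the highest unstimulated library at 0.88. The fitted difference of DMSO from unstimulated was 1.18 (SE 0.28), and that of belinostat from DMSO was 0.02 (SE 0.25, adjusted p 0.978 by edgeR). A short transcript starts at 123887166, with its nearest peak 3116 bases away. A longer transcript with no defined coding sequence starts at 123940267. The peak there, chr10:123939873-123940128, had medians of -0.49, -0.14 and 0.50, with 1 to 8, 3 to 7 and 4 to 10 counts per library and overlapping groups. The strongest body peak, named after its values were seen, lay between these starts at chr10:123929924-123931083, in introns of CPXM2 and of the lncRNA ENSG00000234677. Its medians of 2.40, 2.68 and 2.73 differed little on the main scaling, with a fitted difference of 0.20 (SE 0.15) between DMSO and unstimulated, which was 0.47 with loess offsets. Its belinostat to unstimulated difference was 0.26, and 0.63 with loess offsets.

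The strong sites of the locus were upstream, toward CHST15, a sulfotransferase that modifies chondroitin sulfate. The strongest, chr10:123994664-123996141, was intergenic, with log2 CPM medians of 5.68 in unstimulated, 5.30 in DMSO and 5.08 in the belinostat group. Its lowest unstimulated library, at 5.44, was above the highest DMSO library, at 5.41. The other strong sites were chr10:123997423-123997898, at an exon of the lncRNA ENSG00000288757, with medians of 4.51, 4.32 and 3.93, and chr10:124032985-124033757, in a CHST15 intron, with 5.02, 4.63 and 4.43. Fitted differences between DMSO and unstimulated were -0.43, -0.30 and -0.40 (SE 0.11 each), the smallest of the locus among peaks whose average log2 CPM was 0 or more. The median over all 14514 peaks of that strength (average log2 CPM 4 or more) was -0.37, and with loess offsets these 3 peaks were at -0.03, 0.07 and -0.02. The 20 upstream peaks outside CHST15 had a median difference of 0.27, and 10 peaks in CHST15 had 0.12. At the other end, all 10 peaks in GPR26, the gene of an orphan G protein-coupled receptor known mainly from brain, had differences above 0, from 0.13 to 1.91 with a median of 0.85. With loess offsets that median was 0.38.

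The limits of the locus were set by distance and not by signal. The outermost members, chr10:123610063-123610392 and chr10:124032985-124033757, had DMSO to unstimulated differences of 1.47 and -0.40. The first peaks outside, chr10:123597769-123598558 and chr10:124041766-124041984, had 0.41 and 0.36.

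Calls between belinostat and DMSO libraries are given beside the shares over all peaks and over weak peaks. Of the 117 peaks, edgeR called 1 opened between belinostat and DMSO libraries (0.607% of all peaks were) and 0 closed (1.75% of all). At an unadjusted p under 0.05 there were 7 higher and 8 lower, or 12.8% of the locus against 15.9% of all peaks (8.21% higher and 7.68% lower). Most of the locus is weak, and of all 238929 peaks with an average log2 CPM under 1, edgeR called 0.438% opened and 297 closed. An unadjusted p under 0.05 was found in 12.7% of those and in 12.3% of the 106 such peaks of the locus. DESeq2 called 0 in either direction (1081 opened and 5729 closed of all 334857 peaks). With loess offsets edgeR called 0 opened (0.945% of all) and 0 closed (1.51% of all). The fitted differences had a median of 0.00 and ran from -1.42 to 2.25. In the body the median was 0.09 with 33 of 59 above 0, and upstream it was -0.08 with 10 of 30 above 0. Beyond the 3′ end, 13 of 18 intergenic peaks were above 0 (median 0.31) and 3 of 10 GPR26 peaks (median -0.35). Their contrast was not tested, 0 of these 28 peaks were called, and their summed counts had a ratio of belinostat to DMSO means of 1.04. For comparison, 136038 of the 238929 weak peaks were above 0, with a median of 0.10.

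The called peak was one of the weakest of the locus. It lay at chr10:123951936-123952123, intergenic and 11762 bases upstream of the long transcript's start, and held 39 counts over all libraries. DMSO libraries had 0 to 2 counts each and belinostat libraries 2 to 5, against 0 to 5 in unstimulated ones. On the log2 CPM scale every belinostat library, from -0.61 to 0.09, was above every DMSO library, from -1.81 to -0.78, and both overlapped the unstimulated range. The fitted difference was 2.25 (SE 0.64, edgeR adjusted p 0.0303). It lost the call with loess offsets (adjusted p 0.0867), with scaling on the weaker 50% of peaks and without DMSO replicate 2 or 5 or belinostat replicate 2, 4 or 6 (adjusted p of 0.0952 at most over these).

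None of the named body peaks passed the belinostat test. At the start of the long transcript, the peak described above was 0.86 higher with belinostat (SE 0.37, p 0.0211, edgeR adjusted p 0.222). A neighbouring peak chosen after its values were seen, chr10:123939614-123939765, was 1.13 higher (p 0.0134, adjusted p 0.183). The peaks at 49.2 and 10.4 kb toward the 3′ end differed by -0.22 (SE 0.23) and -0.23 (SE 0.32) between belinostat and DMSO, with adjusted p of 0.669 and 0.753. The peaks beside the index peak had differences of opposite sign that did not pass the test either, 0.46 (SE 0.32, adjusted p 0.479) toward the 3′ end and -1.02 (SE 0.49, adjusted p 0.283) on the other side.

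Belinostat libraries were also compared with unstimulated ones, and both enter other comparisons above. The unstimulated libraries also entered the choice of the locus, so the calls of this comparison are a description and nothing is read from them. Of the 116 peaks other than the index peak, 41 were called opened (35.3%; 16.8% of all peaks were) and 3 closed (13.7% of all). With loess offsets, 20 of the 117 were opened (3.82% of all) and 0 closed (4.92% of all). Body peaks held 29 of the 41, upstream peaks 1 and peaks beyond the 3′ end 11. The 3 closed peaks were the 3 strong upstream sites, with fitted differences of -0.59, -0.56 and -0.60, which loess offsets moved to 0.02, -0.02 and -0.04. They too were named for their difference from the unstimulated libraries, and 13962 of all 14514 peaks of that strength were closed in this comparison. The peaks at 49.2 and 10.4 kb toward the 3′ end differed by 1.84 (SE 0.32) and 1.72 (SE 0.43), given without a test because they were named for their difference from the same unstimulated libraries. The index peak's neighbour at 3.0 kb, named for its position, was 2.23 higher (SE 0.42). The peak at the coding start, also named for its position, was 1.20 higher (SE 0.29), and 1.15 with loess offsets. Both values are given without a test, since the unstimulated libraries entered the choice of the locus. Its average log2 CPM was 0.94, and 22.1% of all peaks under 1 were called opened in this comparison.

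Counts were then summed per protein-coding gene, over peaks that touched its body or lay up to 3 kb before its start, and scaled over the 18893 gene sums. The CPXM2 sum of 62 peaks had log2 CPM of 4.75 to 5.46 (median 5.25) in unstimulated, 5.99 to 6.61 (median 6.45) in DMSO and 6.23 to 6.67 (median 6.58) in the belinostat group. Both treated groups were above every unstimulated library. The fitted difference of DMSO from unstimulated was 1.25 (SE 0.10), and 1.14 (SE 0.11) without the index peak. It was 0.42 when all peaks within 100 kb of the gene were summed. Between belinostat and DMSO the CPXM2 sum differed by 0.13 (SE 0.10, edgeR adjusted p 0.469; 1.76% of all genes were opened and 3.72% closed). The neighbours differed in their cytokine values, with 1.05 (SE 0.21) for the 10 peaks of GPR26, which all belong to the locus, and -0.04 (SE 0.04) for the 29 of CHST15. Their belinostat differences, -0.18 (SE 0.20, edgeR adjusted p 0.64) and -0.08 (SE 0.04, adjusted p 0.208), did not pass the test.

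The 7 other carboxypeptidases of the same subfamily are set beside all genes. CPXM2 was chosen for a large difference, so nothing is read from their smaller ones. Between DMSO and unstimulated libraries, 2 of 7 were opened (19.5% of all genes were) and 0 closed by edgeR (12.2% of all), and the median over the 7 was 0.11 against -0.02 over all genes. At an unadjusted p under 0.05 the count closed was 0 as well. Over the alternatives run on the gene sums, DESeq2 among them, 0 to 2 of the 7 were opened and 0 to 3 closed. The gene CPM, which encodes carboxypeptidase M, an enzyme anchored at the cell surface, was opened by 0.47 (SE 0.08, adjusted p 0.00018), and CPXM1, of the discoidin branch, by 0.36 (SE 0.11, adjusted p 0.0125), a call lost with loess offsets (0.10, adjusted p 0.514), which left 1 of 7 opened (13.5% of all genes) and 0 closed (7.45% of all). With peaks within 100 kb the gene CPM had 0.00 and CPXM1 -0.02. The other 5 lay between -0.14 and 0.13: AEBP1, a matrix protein, CPE, which processes prohormones, CPD of the secretory pathway, CPZ, which binds Wnt, and CPN1, the active subunit of plasma carboxypeptidase N. With scaling by the factors of the peak table, which moves the median of all genes to -0.26, the gene CPM alone stayed opened and AEBP1, CPD and CPZ were closed. Between belinostat and DMSO, CPE was opened by 0.32 (SE 0.09, adjusted p 0.028) and the other 6 did not pass (1.76% of all genes were opened and 3.72% closed). With loess offsets 1 was again opened (2.38% of all) and 0 closed (2.49% of all). The CPE call was lost with the factors of the peak table (0.23, adjusted p 0.22), with peaks within 100 kb (0.05) and without DMSO replicate 1, 2 or 4 or belinostat replicate 2, 3 or 5.

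**Figure D5:**
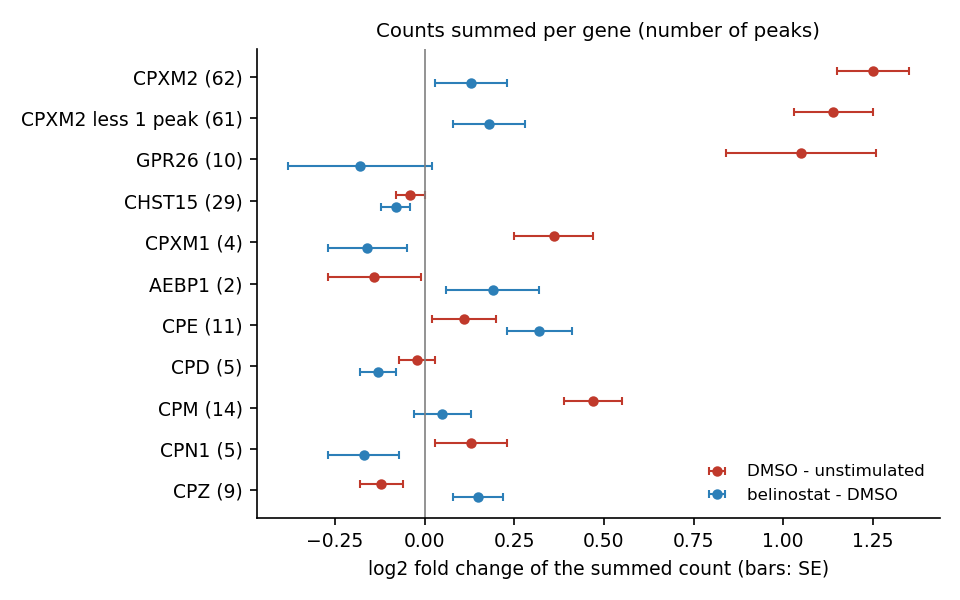
Fitted log2 fold changes of summed counts (points, with SE) for CPXM2 with and without the index peak, its neighbours and the 7 related carboxypeptidases, with the number of peaks in brackets. CPXM2 (1.25) and GPR26 (1.05) stand to the right of the others for DMSO minus unstimulated, and all belinostat differences lie between -0.18 and 0.32. The locus that holds both genes was chosen by the DMSO to unstimulated comparison.

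Outside the locus, the 5 peaks whose pattern was most like the index peak, by Pearson's r of log2 CPM over the 18 libraries among 95917 peaks whose average log2 CPM was 1 or more, were nearest to NRCAM (r 0.953), HSD11B1 (0.947), FAM110B (0.935), CSGALNACT1 (0.934) and PTGS2 (0.933). The libraries share their depth and group differences in all of these values, and r is given as a description. In all 5, every DMSO library was above every unstimulated one and the belinostat range overlapped that of DMSO. The index peak has this pattern and the 5 were picked for likeness to it, so nothing is read from it. How many of the 95917 peaks have the pattern is not given. The HSD11B1 peak, 15916 bases from the start of a gene whose enzyme regenerates cortisol, had log2 CPM medians of 1.54, 3.27 and 3.05 in unstimulated, DMSO and belinostat libraries. The PTGS2 peak, chr1:186680002-186681072, lay 114 bases from the start of the gene for cyclooxygenase-2 and had medians of 3.14, 4.43 and 4.18. Both were more open in unstimulated cells than the index peak, whose median there was 0.64.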

How the data were processed

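Bulk ATAC-seq was measured in 18 libraries of Ccd18-Co fibroblasts. The authors trimmed and aligned reads to hg38, called peaks with MACS2, merged them across conditions and counted fragments per peak with csaw. The deposited counts are raw and not normalised. The members and lists were chosen with earlier results of these data known. Counts were fitted over all peaks with edgeR 4.0.16 (R 4.3.3; glmQLFit, TMM factors, average log2 CPM over -3, which all peaks passed) and adjusted by Benjamini-Hochberg, with calls at 0.05. DMSO minus unstimulated is called the cytokine difference. Log2 CPM used a prior count of 2. Alternatives were library totals, TMM over 10 kb bins or the weaker 50% of peaks, loess offsets (limma 3.58.1), filters, merging of peaks within 500 bases, a replicate block, DESeq2 1.42.0, leaving out each library and, added after seeing the data, peak-table factors for gene sums.

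Peaks were named by rule: the index peak, those within 500 bases of a CPXM2 start, those called with belinostat, the 3 largest and 3 smallest cytokine differences at an average log2 CPM of at least 0, the strongest, and the index peak's neighbours. Peak starts are given 1-based. The sequence of the peak at 49.2 kb is not reported here. The script was tested on simulated data. Weak peaks rest on few counts: the 117 totals over all libraries ran from 35 to 5133, with a median of 83.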

Additional observations from a re-analysis of the deposited data

Results flagged for a closer look

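In the peak 49.2 kb from the index peak toward the 3′ end of CPXM2, belinostat replicate 1 stood apart from the 5 other belinostat libraries, with a log2 CPM of 2.03 against 0.89 to 1.24. Its gap to the nearest of them was 0.689 of the group's range, over Dixon's 95% limit for 6 samples. The rule was applied to 66 groups of libraries and met in 1, and chance alone meets it in about 1 of 20 groups. Without that library the difference between belinostat and DMSO at this peak was -0.42, against -0.22 with it, and neither passed the edgeR test.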

How the results depend on the processing

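Of the 117 peaks, 41 were called opened between DMSO and unstimulated libraries. The count was 21 with TMM over the weaker 50% of peaks (7584 of all 334857 peaks, against 31861 in the main fit). It was 16 with loess offsets (6709 of all) and 25 with DESeq2 (15215 of all). With an average log2 CPM over 0 it was 21 (23464 of the 199544 peaks tested). With 1 library left out it was 27 to 43, and the count over all peaks moved as well, to 18497 without unstimulated replicate 6. The 2 closed (32570 of all) became 1 with library totals (10894 of all) and 0 with loess offsets (6379 of all). With 1 library left out they were 2 to 3. The peak opened with belinostat (2034 of all peaks were) was lost with TMM over the weaker 50% (339 of all) and loess offsets (3163 of all). It was also lost with an average over 0 (2705 of the 199544 tested) and DESeq2 (1081 of all). The count was 0 to 1 with 1 library left out. Between belinostat and unstimulated libraries, the 42 opened (56111 of all) became 68 with library totals (101897 of all) and 20 with the weaker 50% (9267 of all). They became 20 with loess offsets (12785 of all), 25 with an average over 0 (37017 of the 199544 tested) and 35 to 46 with 1 library left out. The 3 closed (45962 of all) became 5 with the weaker 50% (102230 of all) and 0 with loess offsets (16485 of all). An average over 0 leaves fewer peaks to test, and the cause of the other shifts was not tested.

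For the related carboxypeptidases, the 2 opened between DMSO and unstimulated libraries became 1 with loess offsets, 1 with peak-table factors and 0 when peaks within 100 kb were counted, and the 0 closed became 3 with peak-table factors and 1 within 100 kb. With belinostat, the 1 opened became 0 with peak-table factors and 0 within 100 kb (0 to 1 with 1 library left out), and the 0 closed became 1 within 100 kb. The CPXM2 sum's DMSO to unstimulated difference of 1.25 became 0.42 within 100 kb, and its belinostat to unstimulated difference of 1.38 became 0.45.

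Some small differences changed sign. The belinostat difference of the coding start peak (123891032-123891484) was -0.11 with the weaker 50% and -0.08 to 0.17 with 1 library left out. The strongest peak (123994664-123996141) had 0.05 with loess offsets for belinostat against DMSO and 0.02 against unstimulated. The peak at 123865940-123866138 had a belinostat to unstimulated difference of -0.46 with the weaker 50%, -0.54 with loess offsets and -0.21 to 0.57 with 1 library left out. GPR26 had a belinostat difference of 0.26 within 100 kb, CHST15 a DMSO to unstimulated difference of 0.01 with loess offsets and 0.02 within 100 kb, and CPXM1 one of -0.02 within 100 kb.

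Replicate numbers did not pair the libraries: deviations of same-numbered libraries had r from -0.184 to 0.151 over 18 pairs, 5 over 0.1, and 3 of 18 libraries correlated best with their own number. With the replicate block, 42 peaks were opened and 3 closed between DMSO and unstimulated (32344 and 34536 of all peaks). Between belinostat and DMSO 1 and 0 were (1902 and 6230 of all). Between belinostat and unstimulated 42 and 3 were (54150 and 46357 of all). Counts of 10 or fewer per library limit what weak peaks can show.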
